A study of Mus musculus with 2 samples.

Results

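The fatty acid binding proteins (Fabp genes) were followed in mouse retina at postnatal day 12 on 1-colour Agilent expression arrays. A probe counted as a member when it was not a control and its annotated transcript is a RefSeq transcript of Fabp1, Fabp2, Fabp3, Fabp4, Fabp5, Fabp6, Fabp7 or Fabp12. This gave 10 probes for 8 genes, out of 55677 probes and 21367 named genes. Fabp3 and Fabp12 had 2 probes each, the other genes 1, and each probe was printed in 1 spot.

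The comparison was between 1 array of total retinal RNA from mice labelled wild type and 1 array labelled Samd7 KO, to find which retinal transcripts differ when Samd7, a sterile alpha motif protein gene of photoreceptors, is lost. The labels give neither strain nor sex, nor the deleted part of Samd7, nor the number of animals or retinas behind each RNA sample. With 1 array per group there is no replicate, so no p-value or standard error exists and every difference compares these 2 arrays only.

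Fatty acid binding proteins are small cytoplasmic proteins that hold a long-chain fatty acid or a related lipid inside a barrel of beta strands and carry it between membranes, enzymes and the nucleus. Some hand their ligands to peroxisome proliferator-activated receptors (PPARs), the lipid-sensing nuclear receptors that pair with retinoid X receptors (RXRs). Most members are named for the tissue they were first found in. In neural tissue Fabp7 is known as the brain form of radial glia and astrocytes, and Fabp5, Fabp3 and Fabp12 are also known from retina.

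Fabp7 was several-fold higher on the array labelled KO, and Fabp6 came above background there only. Fabp4 was about 2-fold lower, close to the threshold. Fabp3, Fabp5 and Fabp12 differed little, and Fabp1 and Fabp2 were not well above background on either array. The promoters of both higher members are given first, because these are the genes in which the arrays differed most. Shown are the 250 bases before the start site, 5′ to 3′ on the gene's strand, from RefSeq on GRCm38.p6. Capitals mark matches on either strand to TTGGC, a half-site of nuclear factor I, or to AGGTCA, a nuclear receptor half-site used by PPAR and RXR pairs.

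Fabp7, chr10:57784673-57784922, plus strand: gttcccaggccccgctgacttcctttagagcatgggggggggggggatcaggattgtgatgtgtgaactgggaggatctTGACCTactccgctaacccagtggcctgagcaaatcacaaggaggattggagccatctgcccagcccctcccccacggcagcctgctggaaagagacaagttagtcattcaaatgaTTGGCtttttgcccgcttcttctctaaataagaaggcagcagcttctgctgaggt
Fabp6, chr11:43601563-43601812, minus strand: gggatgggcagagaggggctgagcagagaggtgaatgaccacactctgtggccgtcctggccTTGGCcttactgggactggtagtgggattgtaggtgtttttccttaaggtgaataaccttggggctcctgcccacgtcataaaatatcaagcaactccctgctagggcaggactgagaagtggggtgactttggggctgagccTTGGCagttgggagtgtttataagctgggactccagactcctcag

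The Fabp7 window held 1 nuclear factor I half-site, beginning 55 bases before the start, and 1 nuclear receptor half-site on the opposite strand, beginning 171 bases before it. The Fabp6 window held 2 nuclear factor I half-sites, at 188 and 45 bases before the start, and no nuclear receptor half-site. The former is common, with a match in 41.5% of 32851 promoter windows of this length, while the latter occurred in 14.0%. Also searched on both strands was TAATCC, the core recognised by photoreceptor homeodomain proteins of the Crx and Otx type, which was found in 6.25% of windows and in neither of these. The motifs share no letters at any place marked here. Of the 8 members, 5 had a promoter entry. The Fabp1 window held 2 nuclear receptor half-sites, that of Fabp2 held 1 nuclear factor I half-site and that of Fabp3 none of the 3 motifs. A match describes letters in a window, not binding.

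Levels below are on the log2 scale, as the processed signal relative to the 75th percentile of all non-control spots of that array, and a difference is KO label minus wild type label. That percentile stood at 574 for wild type and 554 for KO. The scanner called 60.3% and 60.9% of non-control spots well above background, none was saturated, and 1 slide carried both arrays. The technical SD of a difference, from 320 probes printed more than once, was 0.33 for levels below -4, 0.19 for those up to -2, 0.09 for those up to 0 and 0.05 for brighter probes. It says nothing of the spread between animals or between repeat arrays of the same RNA. The only named probe for the targeted gene Samd7 went against its label, with a level of 4.68 under wild type and 6.47 under KO. The labels do not place that probe relative to the deletion, so it may check nothing, and each direction given here rests on the labels. All 7 rod genes and all 8 cone genes of the marker lists were above background on both arrays. Those lists were chosen with earlier results of these data known, so this is no independent check of the tissue label.

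Of the 6 members above background on at least 1 array, 2 (Fabp6 and Fabp7) were higher by 2-fold or more under the KO label, against 1.57% of 15948 named genes so measured, and 1 (Fabp4) was at least 2-fold lower, against 1.37%. Fabp6 entered this count only through the array on which it was high, so its direction was fixed in advance, though not its size. Over these 6 members the median difference was 0.02 (-0.10 to 0.05 over the alternative settings), beside -0.02 over all named genes, and 3 members lay on each side of 0. Differences in the family thus ran in both directions. Over all named genes 9193 of 15948 were lower under the KO label and 6728 were higher. Counts of lower and higher markers below are to be read beside these shares. Signals of different probes depend on their sequence, so no order of level among the genes is given.

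**Figure D1:**
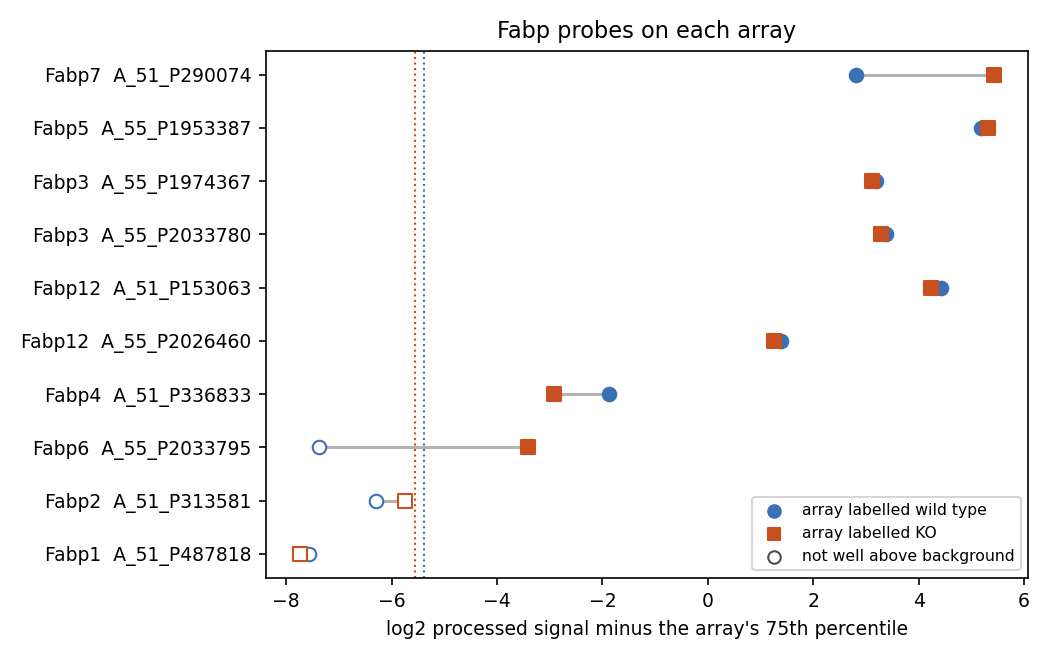
Log2 processed signal relative to the 75th percentile of each array (x axis) for each of the 10 Fabp probes (y axis), on the array labelled wild type (blue circles) and the array labelled KO (orange squares); open symbols are not well above background and dotted lines mark the lowest signal called well above background on each array. Fabp7 moves from 2.82 to 5.42, Fabp4 moves the other way from -1.88 to -2.92, and Fabp6 is open under the wild type label only; probes of different genes are not comparable along the axis.

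Fabp7, the brain fatty acid binding protein, which binds docosahexaenoic acid and other polyunsaturated fatty acids, was the member with the largest difference measured on both arrays. Its probe A_51_P290074 gave a processed signal of 4053 under the wild type label and 23773 under the KO label, where the scanner's own error estimates were 405 and 2377. The spot pixels had a median of 3451 and 20157 over local backgrounds of 38 and 37. Both spots were thus far brighter than their surroundings.

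In log2 terms Fabp7 went from 2.82 to 5.42, a difference of 2.61 or 6.09-fold, where the technical SD was 0.05. Only 25 of the 15267 named genes above background on both arrays (0.164%), Fabp7 included, had a difference this high. Over the other ways of scaling the arrays and correcting the background, the Fabp7 difference lay between 2.58 and 2.64. There was only 1 Fabp7 probe, so no other probe of the gene checks it.

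Fabp7 is known from glia, so glial markers are given beside it. Beside 6728 of 15948 named genes that were higher, 10 of 12 Müller glia markers were higher and none was 2-fold apart. All 12 were above background on both arrays. Their median was 0.09, from Car2, a carbonic anhydrase, at -0.13 to Apoe, a lipoprotein component, at 0.44. The summed signal of the 12, in multiples of the 75th percentile, was 339 under the wild type label and 365 under the KO label, a ratio of 1.08. All 4 astrocyte markers above background were slightly lower (median -0.06), from Aldh1l1 at -0.10 to S100b at -0.02, and Pax2 was not above background. No gene in either glial list differed as much as Fabp7, but these lists do not show which cells made Fabp7.

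Fabp7 is also known from dividing neural progenitors, and proliferation markers were mostly lower. Of the 6, 5 were lower, with a median of -0.27, from Top2a, a topoisomerase of dividing cells, at -1.02 to Mcm2 at 0.05. Top2a was dim, at -3.90 under the wild type label and -4.92 under the KO label, where the technical SD was 0.33. Besides the small difference in Müller glia markers, the lists with a higher median under the KO label included lens and cones, whose medians were 1.55 and 1.20. Of 11 lens markers above background on at least 1 array, 7 were at least 2-fold higher, beside 1.57% of named genes. Foxe3, a lens epithelium factor, was at least 2-fold lower by a bound. Mip, among the 7, and Lim2 entered only through the array labelled KO, as bounds of 2.53 and 0.66. The direction of each bound was fixed in advance. The summed signal of the 11 was 4.60 under the wild type label and 19.2 under the KO label, while Gja3, a connexin of lens fibres, was not above background on either. Among lens markers above background on both arrays, values ran from Bfsp2, a fibre filament gene, at -0.15 to Crybb2, a crystallin, at 2.80. Cone markers summed to 106 and 345, with 4 of 8 at least 2-fold higher, from Pde6c at -0.04 to Cnga3 at 2.91. That sum rests mostly on the brightest of them, Gngt2, which went from 5.63 to 8.09. The cone list was split: 4 genes lay between 2.09 and 2.91 and the other 4 between -0.04 and 0.32. Its median of 1.20 fell in the gap and describes no single cone gene. The part of glia, dividing progenitors, lens or cones in the Fabp7 difference was not tested. More cells of a type and more RNA per cell cannot be told apart in whole retina.

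The gene next to Fabp7 on chromosome 10 also differed. The neighbours described here were looked up after the values of the members had been seen. Smpdl3a, an acid sphingomyelinase-like phosphodiesterase gene, is the next protein-coding gene after Fabp7 in RefSeq's order. Its 1 probe gave a processed signal of 707 under the wild type label and 1779 under the KO label. The difference of 1.39, or 2.61-fold, lay between 1.27 and 1.42 under the other settings. A difference this high was found in 92 of 15267 genes (0.603%).

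The nearest genes beyond this pair were near level or not above background. On the other side Pkib, a protein kinase inhibitor, was at 0.18, Serinc1 at -0.02 and the heat shock factor Hsf2 at -0.02. Beyond Smpdl3a, Gm4981 was not above background and the Golgi protein gene Gcc2 was at 0.18. Around Fabp6 the 6 nearest genes on chromosome 11 ran from C1qtnf2 at -0.35 to Ccnjl at 0.14. A neighbour that differed was not particular to Fabp7. Tinagl1, which encodes a secreted matrix protein and lies within 3 genes of the near-level Fabp3 on chromosome 4, was at -2.78 by its brightest probe, with processed signals of 126 under the wild type label and 17.7 under the KO label. Its other probe was at -0.03, and the brightest probe gave -1.07 after normexp. Members aside, Smpdl3a and Tinagl1 were the only genes at least 2-fold apart among the 3 on each side of any of the 8 members.

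**Figure D2:**
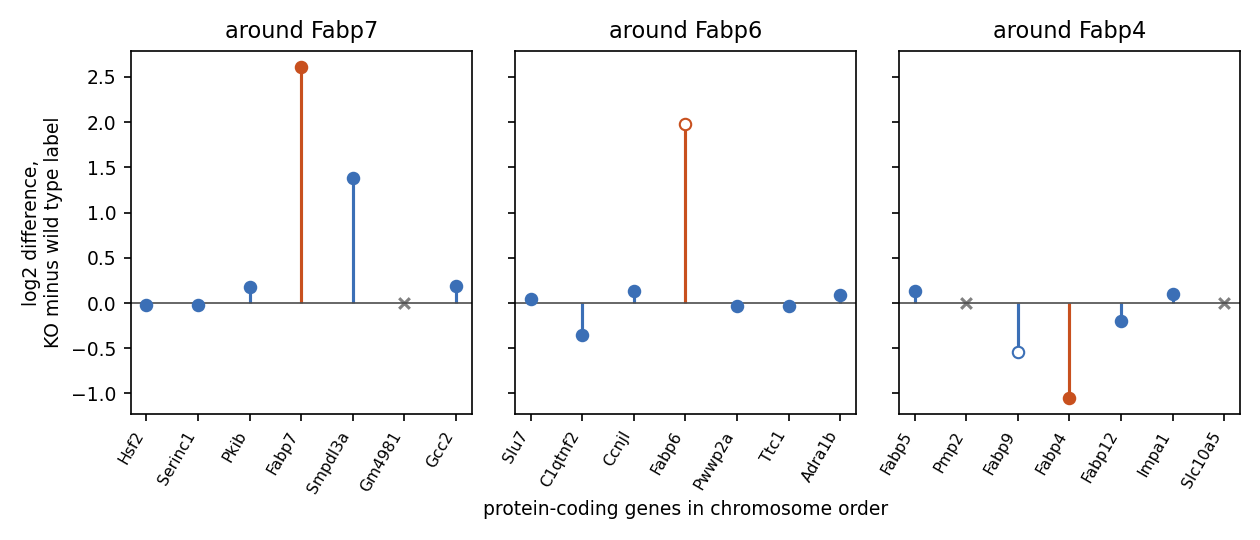
Log2 difference, KO minus wild type label (y axis), for Fabp7, Fabp6 and Fabp4 (orange) and the 3 nearest named protein-coding genes on each side (blue) in chromosome order (x axis); open circles are bounds and crosses genes not above background on either array. Smpdl3a, at 1.39, is the only neighbour in the 3 panels that is at least 2-fold apart.

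Fabp6, the ileal form or gastrotropin, binds bile acids in the cells that take them up from the gut. Its probe A_55_P2033795 had a processed signal of 3.45 under the wild type label, not well above background, and 51.8 under the KO label, with scanner error estimates of 3.47 and 5.98. The spot's median pixel value was 45 over a local background of 43 on the first array and 91.5 over 45 on the second. The scanner called the spot well above background under the KO label only.

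Measured against the lowest signal called well above background under the wild type label, which was 13.7, Fabp6 was at least 3.93-fold higher, or 1.97 on the log2 scale. That bound allows nothing for spot noise. It fell to 0.66 after normexp background correction, whose offset of 50 shrinks dim differences, and lay at 1.97 to 2.05 under the other scalings. The signal was dim on both arrays, and there was no further probe. Markers of gut and liver were mostly at background: of 7, only Vil1, a brush border protein gene, was above background, at -0.21, while Alb, Apoa1, Apob, Apoa4, Cdx1 and Cdx2 were not.

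Fabp1, the liver form, and Fabp2, the intestinal form, were not measurable. Fabp1 had processed signals of 3.02 and 2.61 on the arrays labelled wild type and KO, and Fabp2 had 7.29 and 10.4. None of these 4 spots was well above background, so no fold is given for either gene, and a low level cannot be told from none.

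Fabp4, the adipocyte form, also made by capillary endothelium and macrophages, was the 1 member lower by 2-fold or more. Its probe A_51_P336833 gave 156 under the wild type label and 72.9 under the KO label, with scanner error estimates of 15.9 and 7.75. The log2 values were -1.88 and -2.92, a difference of -1.05 or 2.06-fold. The difference exceeded the technical SD of 0.19 at this signal, but its distance from the 2-fold threshold did not. After normexp it was -0.64, within 2-fold. Of the genes above background on both arrays, 85 (0.557%), Fabp4 included, were this low.

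Markers of the cells that make Fabp4 showed smaller differences. Of 11 endothelial markers 10 were lower, none 2-fold, beside 9193 of 15948 named genes that were lower. Their median was -0.11, from the angiopoietin receptor gene Tek at -0.29, where the technical SD was 0.19, to the VEGF receptor gene Kdr at 0.01. Their summed signal was 48.6 under the wild type label and 46.3 under the KO label. Of 13 microglia and macrophage markers 9 were lower (median -0.10), from Csf1r at -0.23 to Itgam at 0.33, and they summed to 24.1 and 25.0. Itgam, the brightest of them, went from 3.19 to 3.52 and weighs most in that sum. Of 6 adipocyte markers, Adipoq, Cidec, Lep and Cfd were not above background. Plin1 was at -0.29, where the technical SD was 0.33, and Retn was at 0.30. The part of endothelial or myeloid cells in the Fabp4 difference was not tested.

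Fabp5, the epidermal form, which carries fatty acids and retinoic acid to PPAR delta, was close to level. Its probe A_55_P1953387 gave 20860 under the wild type label and 22050 under the KO label, with scanner error estimates of 2086 and 2205. These signals lay closer together than either error estimate. The difference was 0.13, where the technical SD from repeated spots was 0.05, and a difference this high occurred in 13.8% of genes above background on both arrays. Fabp5 is known from lens and surface epithelium as well as from neural tissue. Of the lens markers, 7 of 11 were at least 2-fold higher, as given above, with Mip among the 7 by a bound. Surface epithelium markers had a median of -0.01 (-0.02 to 0.05 over the alternatives), with Krt12 of the cornea not above background. They ran from Krt14 at -0.21, where the technical SD was 0.33, to Krt1 at 0.27.

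Fabp3, the heart and muscle form, which delivers fatty acids to mitochondria and is also made by neurons, was near level by both of its probes. A_55_P2033780 gave 6020 under the wild type label and 5415 under the KO label, a difference of -0.10, with scanner error estimates of 602 and 542. A_55_P1974367 gave 5241 and 4785, a difference of -0.08. The probes differed by 0.02, less than the technical SD of 0.05, and both lay a little below 0. Skeletal muscle markers, which would mark attached eye muscle, had a median of -0.05, from Myh3 at -0.37 to Tnni2 at 0.20, and Ckm and Tnnt3 were not above background.

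Fabp12, a member known from retina and testis, was slightly lower by both probes. A_51_P153063 gave 12372 under the wild type label and 10428 under the KO label, a difference of -0.19 (1.14-fold). The scanner error estimates were 1237 and 1043. A_55_P2026460 gave 1504 and 1330, a difference of -0.13. The 2 probes lay 0.07 apart on the same side. A difference as low as -0.19 occurred in 12.8% of genes above background on both arrays, so Fabp12 stood among many such genes. Rod markers were lower beside it, 6 of 7, with a median of -0.28, from Gnat1 at -2.13 to Rom1 at 0.08; in which retinal cells Fabp12 was made was not tested.

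Fabp5, Pmp2, Fabp9, Fabp4 and Fabp12 follow each other in this order on chromosome 3, but they did not move together. Fabp5 was at 0.13, Fabp4 at -1.05 and Fabp12 at -0.19. Pmp2, the myelin member of the family, was not above background on either array. Fabp9, the testis form, was above background under the wild type label only and at least 1.46-fold lower on the other, at signals of 17.8 and 8.43. Beyond Fabp12, the inositol monophosphatase gene Impa1 was at 0.10. Myelin genes, given because Pmp2 is one, had a median of -0.08, with Mag lowest at -0.26.

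**Figure D3:**
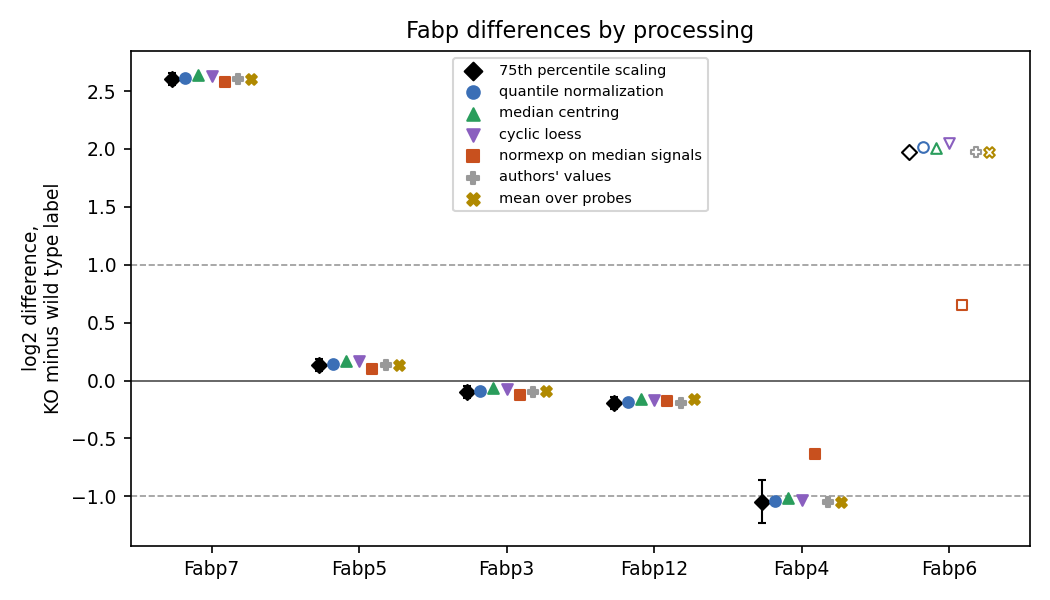
Log2 difference, KO minus wild type label (y axis), for the 6 Fabp genes above background on at least 1 array (x axis), under 75th percentile scaling and 6 alternatives; bars on the black diamonds are 1 technical SD, open symbols are bounds and dashed lines mark 2-fold. Fabp7 stays between 2.58 and 2.64, whereas normexp takes Fabp4 to -0.64 and Fabp6 to 0.66.

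Genes that act with the Fabp family were mostly near level. Of the other 7 intracellular lipid-binding proteins, which share the fold and include the cellular retinol and retinoic acid carriers, 6 were above background and none 2-fold apart. The lowest was the bound of Fabp9. Those measured on both arrays ran from Crabp1, a retinoic acid carrier, at -0.29 to Rbp2, a retinol carrier, at 0.18. Rbp2 was dim, with a technical SD of 0.33. Uptake genes were more often lower, 10 of 12, with a median of -0.17 beside -0.02 over all genes, but none was 2-fold apart. Over all named genes 9193 of 15948 were lower, so most genes lay on that side. The uptake genes ran from the fatty acid transporter and acyl-CoA synthetase gene Slc27a2 at -0.68 to its relative Slc27a5 at 0.17. For Slc27a5 the technical SD was 0.19. Of 7 genes of acyl-CoA synthesis and binding above background, none was 2-fold apart, from Acsl1 at -0.23 to Acsl3 at 0.46.

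Among 8 PPARs, RXRs and coactivators, Rxrg alone was at least 2-fold apart. Rxrg, a retinoid X receptor of cones, gave 1675 under the wild type label and 10980 under the KO label with its brightest probe, a difference of 2.77. Its other probe gave 2211 and 4993, a difference of 1.23, so the probes gave the same direction at different sizes. Pparg was at 0.02, Ppara at 0.04 and Ppard at -0.21, and the coactivator Ppargc1b was lowest at -0.29. All 3 PPAR genes, whose products Fabp proteins are known to supply, were thus less than 2-fold apart.

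Known PPAR targets lay on both sides of 0: 10 of 13 were above background, 4 higher and 6 lower, with a median of -0.02 (-0.05 to 0.01 over the alternatives). The lowest was Cyp4a10, a fatty acid hydroxylase, at -0.63. Pdk4, Cyp4a14 and Fgf21 were not above background. The 17 genes of fatty acid oxidation had a median of -0.01 (-0.03 to 0.03 over the alternatives), from the carnitine transferase gene Cpt1b at -0.34 to Acads, the short-chain acyl-CoA dehydrogenase, at 0.95. Acads lay just under 2-fold, at 96.5 and 180 on the arrays labelled wild type and KO, and at 0.66 after normexp.

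Of 9 lipid droplet and lipolysis genes above background, Lipe alone was 2-fold apart. Lipe, hormone-sensitive lipase, whose partner in adipocytes is Fabp4, gave 121 under the wild type label and 41.9 under the KO label. The difference was -1.48, or 2.80-fold lower, but -0.72 after normexp, within 2-fold. The highest in that list was the triglyceride lipase gene Pnpla2 at 0.15. Pigment epithelium markers, from a cell layer that takes up lipid from photoreceptors, were lower in 6 of 7 cases (median -0.39). They ran from Pmel at -0.81 to Best1 at 0.15, where the technical SD for Best1 was 0.19.

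**Figure D4:**
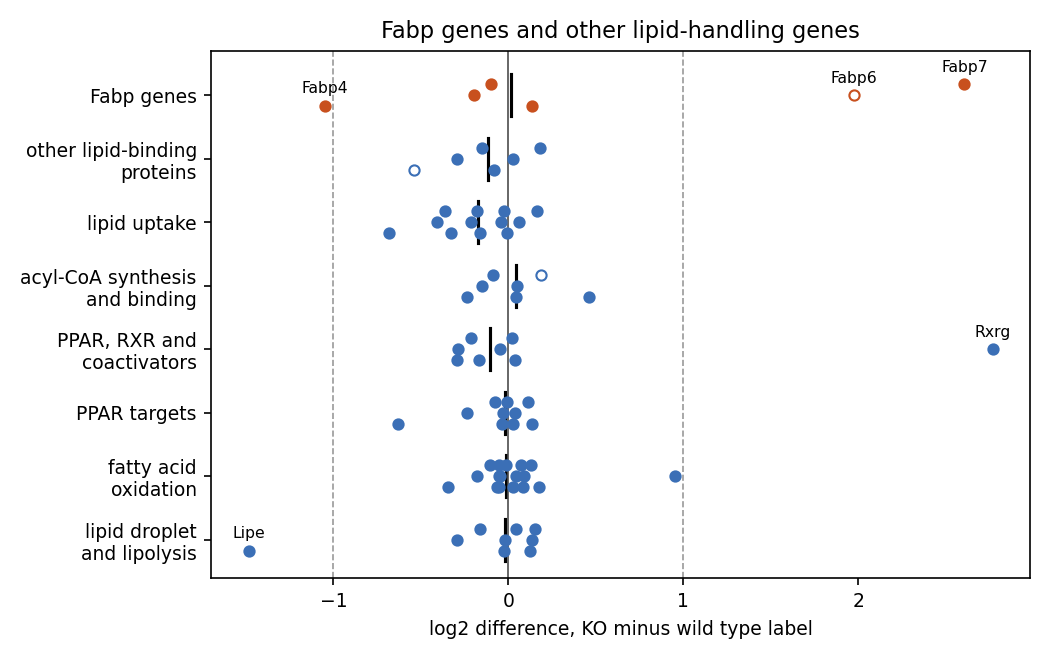
Log2 difference, KO minus wild type label (x axis), for Fabp genes (orange) and 7 lists of other lipid-handling genes (blue), 1 point per gene above background on at least 1 array; open points are bounds, black bars list medians and dashed lines 2-fold. Fabp7 and Rxrg are farthest right and Lipe farthest left, with all medians within 0.2 of 0.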

How the data were processed

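Scanner signals are linear intensity values as the authors deposited them, made per the file headers by Agilent Feature Extraction 11.5.1.1 (protocol GE1_1105_Oct12) for a design based on mm9. The authors' deposited value table holds intensity values proportional to these and served as an alternative, and the scanner's calls (above background, outlier, saturated) are the deposited flags. Processed signals were put on a log2 scale minus each array's 75th percentile, outlier spots were left out and spots of a probe averaged. Probes were named through RefSeq accessions of GRCm38.p6 (28330 of 55677). The brightest probe stood for a gene. A gene above background on 1 array only has a bound against the higher of the other array's lowest signal above background and its own signal. Quantile, median, loess and normexp (limma 3.58.1, R 4.3.3) were alternatives. The calling step was tested on simulated data (Python 3.11.15) whose only noise was that of repeated spots. That test does not cover variation between arrays or animals. There was no statistical test. The members, the 7 lipid lists and the 14 marker lists were chosen with earlier results of these data known. Named genes were all members, Samd7, list genes at least 2-fold apart in the lipid lists, and the highest and lowest of each list, except a few that are not reported here; genes named beyond that, Smpdl3a and Tinagl1 among them, were chosen after their values were seen.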

Additional observations from a re-analysis of the deposited data

How the results depend on the processing

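Fabp7, Fabp5, Fabp3 and Fabp12 kept their direction and stayed within 1 technical SD under every alternative run for them: quantile normalization, median centring, loess, normexp, the authors' values and the mean over probes. Some of this was fixed in advance. The authors' values are proportional to the same signals, and the mean over probes cannot change Fabp7 or Fabp5, which have 1 probe each. Median centring shifts every difference measured on both arrays by the same amount, so it is not a separate check for each gene. Normexp on median signals, run in place of mean signals, which are not used here, moved Fabp4 from -1.05 to -0.64 and the bound of Fabp6 from 1.97 to 0.66. It left 1 member at least 2-fold higher and 0 lower, and 120 named genes higher and 45 lower instead of 251 and 218. With genes above background on both arrays only, 1 member was higher (the bound of Fabp6 drops out by construction), and 160 and 94 named genes. With no filter on dim probes 579 and 671 named genes passed, with a 1.5-fold threshold 472 and 511, and with a 4-fold threshold 79 and 58, where 1 member was higher and 0 lower. Of 176 recomputed list medians, 17 moved by over 0.05 and 19 in 7 lists changed sign, all of them medians under 2-fold. Tinagl1 was -1.41 as the mean over its probes. Dim spots limit Fabp4, Fabp6, Tinagl1, Lipe and Top2a, among others. No paired analysis was possible because there was a single array for each label.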
